A study of Mus musculus with 216 samples.

Results

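The regions described here are the H3K9me3 domains of the centromere-proximal 5 Mb of 17 mouse autosomes (chromosomes 1 to 7, 9, 10 and 12 to 19). H3K9me3 is trimethylated lysine 9 of histone H3, the mark of constitutive heterochromatin. A domain was a member when it started less than 5 Mb beyond the first domain of its chromosome in the authors' deposited table. The rule used positions only, so the decay class of a member is an independent readout. There were 1975 members among the 34389 domains of these chromosomes and the 43039 domains of the whole table. The other 32414 domains of the same chromosomes are called the rest.

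The study followed H3K9me3 and HP1b, a protein that binds it, by ChIP-seq after the degradation of tagged proteins in mouse embryonic stem cells. All samples came from the cell line dTKO. Its genotype carries Suv39h1fl/fl and Setdb1fl/fl alleles and Suv39h2-/-, and the cells were grown in medium with LIF and serum. All samples carry the treatment label + auxin + dTAG13, those at 0 h included, and were taken at 0, 1, 3, 12, 24 and 48 h. Each time had 9 sequencing runs, from 3 biological repeats of 3 runs, for H3K9me3, for HP1b and for an input of each, or 216 samples in all. The table assigns each domain to 1 of 4 decay classes, named fast, intermediate, slow and residual, with no rate and no limit between classes. It holds no value per sample or per time, so the depth behind a class is unknown, no class has an error between cultures, and no test over samples was possible. The comparisons below are therefore descriptions: means ± SD over the 17 chromosomes, the number of chromosomes on each side, and 95% Wilson intervals of shares, which cover counting error only and treat domains as independent. Chromosomes are not biological replicates of a condition.

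Mouse autosomes have their centromere at one end. Next to it lie long arrays of major satellite repeats, the pericentric heterochromatin, which the genome assembly represents as a gap, so the domains described here begin where the assembled sequence begins. Suv39h1 and Suv39h2 are the methyltransferases best known for H3K9me3 at pericentric repeats, and Setdb1 is best known for H3K9me3 at retroelements of embryonic stem cells. HP1 proteins bind H3K9me3 through their chromodomain. By their genotype, all these cells lack Suv39h2, also at 0 h.

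Examples of the sequence beneath the domains show how far it is repeated elsewhere in the genome. The first 4 stretches below are the central 120 bases of the longest proximal domain of a class (for the residual class, of the second longest), and the last 3 are the central 120 bases of the first domain of chromosomes 12, 19 and 6, which begin within 100 bp of the first assembled base. All are the plus strand of GRCm38 (mm10), and capitals mark bases inside a 31-base word that occurs more than once in the genome.
Longest fast, chr1:7671241-7671360: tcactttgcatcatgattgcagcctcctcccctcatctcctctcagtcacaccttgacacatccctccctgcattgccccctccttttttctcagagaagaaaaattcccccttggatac
Longest intermediate, chr7:7266691-7266810: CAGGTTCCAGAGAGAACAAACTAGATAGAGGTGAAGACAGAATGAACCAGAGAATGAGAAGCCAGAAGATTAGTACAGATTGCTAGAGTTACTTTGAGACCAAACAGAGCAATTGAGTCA
Longest slow, chr9:3066241-3066360: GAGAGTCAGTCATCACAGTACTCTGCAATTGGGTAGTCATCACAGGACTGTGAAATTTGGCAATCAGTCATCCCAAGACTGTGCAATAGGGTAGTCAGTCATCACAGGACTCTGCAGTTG
Long residual, chr4:3255991-3256110: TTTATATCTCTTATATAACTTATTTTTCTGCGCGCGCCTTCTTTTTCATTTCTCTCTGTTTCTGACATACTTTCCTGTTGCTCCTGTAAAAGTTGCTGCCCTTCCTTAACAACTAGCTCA
First domain, slow, chr12:3011341-3011460: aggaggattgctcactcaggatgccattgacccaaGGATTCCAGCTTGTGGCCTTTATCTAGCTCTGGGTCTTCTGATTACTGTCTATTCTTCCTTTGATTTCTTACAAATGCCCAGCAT
First domain, intermediate, chr19:3005041-3005160: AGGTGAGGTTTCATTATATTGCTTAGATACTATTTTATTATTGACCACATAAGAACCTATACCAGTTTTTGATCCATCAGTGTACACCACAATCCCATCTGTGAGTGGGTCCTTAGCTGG
First domain, slow, chr6:3055891-3056010: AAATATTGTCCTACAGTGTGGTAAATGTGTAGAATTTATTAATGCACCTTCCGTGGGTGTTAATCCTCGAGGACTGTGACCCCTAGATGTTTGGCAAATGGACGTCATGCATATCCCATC
The fast stretch had 0 of its 120 bases in repeated words. The intermediate, slow and residual stretches were repeated over all 120 bases, with up to 29, 25 and 27 copies of a word. Of the first domains, the stretch on chromosome 12 was repeated over 85 bases with up to 4 copies, that on chromosome 19 over 120 bases with up to 32 copies, and that on chromosome 6 over 120 bases with up to 263 copies.

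Slow domains made up a somewhat larger share of the proximal domains than of the rest, and most chromosomes lay on that side, but the difference was smaller than its spread between chromosomes. Of the 1975 proximal domains, 412 were slow (20.9%, interval 19.1 to 22.7%), against 5819 of the rest (17.95%), where 18.1% of all domains on these chromosomes are slow. Per chromosome the slow share averaged 20.9% in the proximal 5 Mb and 18.1% in the rest, a difference of 2.82 ± 5.54 percentage points (SD, n = 17 chromosomes), higher on 12 and lower on 5. The largest excess was on chromosome 14 (15.2 points), and the largest deficit on chromosome 7 (-7.26 points). Without chromosome 14 the mean difference was 2.05 points. Weighted by bases, slow domains held 33.3% of the covered proximal sequence and 29.3% of that of the rest.

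Intermediate domains were the majority everywhere: 1476 proximal domains (74.7%), against 24900 of the rest (76.8%) and 76.7% of all. Their share differed by -1.91 ± 8.42 points (SD, n = 17), higher on 8 chromosomes and lower on 9. Chromosome 14 alone differed by -27.2 points, and without it the mean was -0.333 ± 5.51 points (n = 16). Weighted by bases the mean was -1.22 points. Fast domains were few, with 50 proximal domains (2.53%, interval 1.93 to 3.32%), against 958 of the rest (2.96%) and 2.93% of all. Chromosomes 5, 14 and 17 had 0 fast proximal domains, and a count of 0, taken as allowing 3 counts, leaves room for shares of up to 2.36%, 2.54% and 5.0% there. The upper ends of the Wilson intervals are 2.94%, 3.15% and 6.02%, so neither chromosome 5 (2.93% in its rest) nor chromosome 14 (3.14%) is told apart from its rest. The fast share differed by -0.607 ± 1.67 points, again on 8 chromosomes higher and 9 lower, so neither class differed beyond its spread.

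Residual domains were few and lay to a large part on 1 chromosome. There were 37 of them in the proximal 5 Mb (1.87%), against 737 in the rest (2.27%) and 2.25% of all domains. Of these 37, 19 lay on chromosome 14, and the other 18 were spread over 9 chromosomes. Chromosomes 3, 7, 9, 10, 12, 13 and 17 had none, which at 3 counts allows shares of up to 1.58% (chromosome 3) to 5.0% (chromosome 17), with Wilson upper ends of 1.98% and 6.02%. The residual share was lower than in the rest on 14 chromosomes and higher on 3. Without chromosome 14 the pooled share was 0.969% (18 domains, interval 0.614 to 1.53%) and the mean difference was -1.27 ± 1.34 points (SD, n = 16), against -0.302 ± 4.18 points with it. Leaving out chromosome 1, 7, 9, 12 or 13 instead brought that mean to between -0.174 and -0.135 points. Joining neighbours of the same class less than 5 kb apart gave -0.167 points, a reach of 2.5 Mb -0.487 points and weighting by bases -0.787 points.

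**Figure D1:**
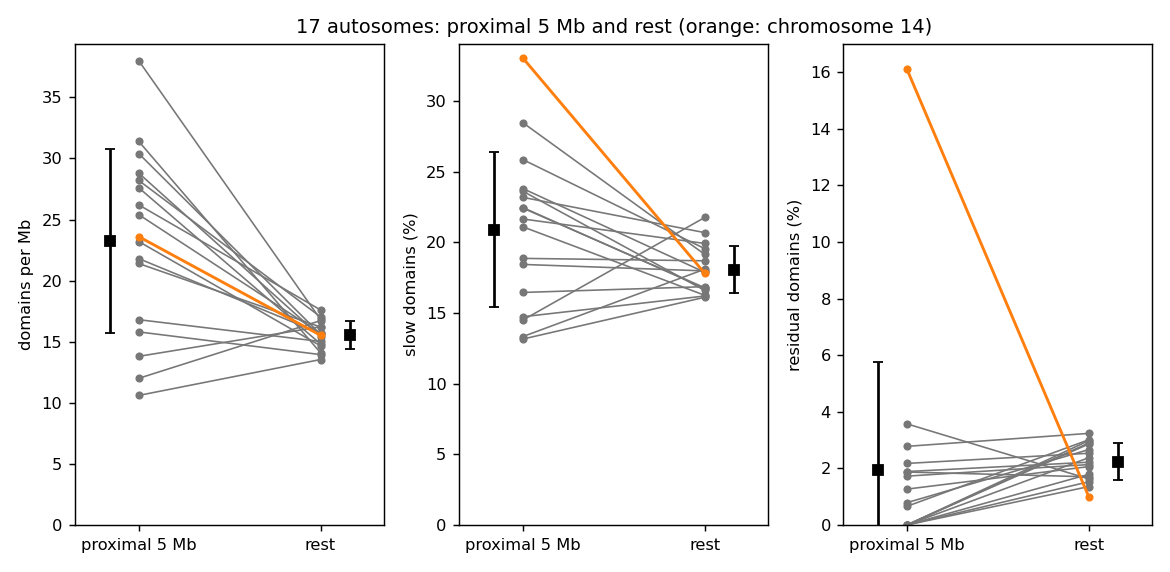
Domain density (domains per Mb), slow share and residual share (%) of the proximal 5 Mb (left) and of the rest (right) for each of 17 autosomes, joined by lines, with chromosome 14 in orange and squares with bars for the mean ± SD over chromosomes. Density is higher in the proximal 5 Mb on 14 chromosomes and slow share on 12, while the residual share of chromosome 14 (16.1%) stands far above the other 16.

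The order of the slow shares along the 17 chromosomes was wide. It ran from 13.2% of 152 domains on chromosome 1 and 13.3% of 60 on chromosome 17, through 14.5% on chromosome 7 and 14.7% on chromosome 3, to 25.9% on chromosome 15, 28.5% on chromosome 4 and 33.1% (39 of 118) on chromosome 14. The interval of chromosome 14 was 25.2 to 42.0%, and that of chromosome 1 was 8.68 to 19.4%. Both chromosomes were picked as the ends of the order. The intervals treat domains as independent, although 86 of the 118 on chromosome 14 had a copy as defined below. They therefore do not test the difference between these chromosomes. The interval of chromosome 4, 21.7 to 36.3%, overlapped those of both chromosome 14 and chromosome 15, so these neighbours in the order are not told apart at these counts. Chromosome 7 was the opposite case to chromosome 14: its slow share was 14.5% in the proximal 5 Mb and 21.8% in the rest.

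Domains were also packed more densely in the proximal 5 Mb. The density averaged 23.2 domains per Mb, against 15.6 in the rest, a log2 ratio of 0.50 ± 0.50 (SD, n = 17), higher on 14 chromosomes and lower on 3, so the mean was as large as its spread. Chromosome 3 had the densest proximal end, with 190 domains, and its rest had 16.8 per Mb. Chromosomes 12, 17 and 19 went the other way: chromosome 17 had 60 domains or 12.0 per Mb, against 16.7 in its rest. When each chromosome was divided into 5 Mb windows, 11 to 38 per chromosome, the proximal window held the most domains on 8 of the 17 chromosomes and ranked 5 or better on 12. It ranked 15 of 18 on chromosome 17, 9 of 11 on chromosome 19, 13 of 23 on chromosome 12, 12 of 35 on chromosome 2 and 6 of 28 on chromosome 7. By its slow share, the same window ranked 5 or better on 8 chromosomes, and it was 27 of 38 on chromosome 1 and 27 of 28 on chromosome 7. Domains covered 11.6 ± 4.47% of the proximal 5 Mb (SD, n = 17), with 4.36% on chromosome 17 and 18.2% on chromosome 3, and 6.15% of the rest. The higher density was not particular to the first 5 Mb. With a reach of 10 Mb the log2 ratio was 0.49. Pooled over chromosomes, the density was 24.5 per Mb from 4 to 5 Mb and 22.0 from 5 to 6 Mb. It reached 25.4 from 16 to 17 Mb, and the lowest bin up to 20 Mb had 18.7. Coverage was 10.9% from 5 to 6 Mb, 7.86% from 13 to 14 Mb and 11.8% from 16 to 17 Mb.

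**Figure D2:**
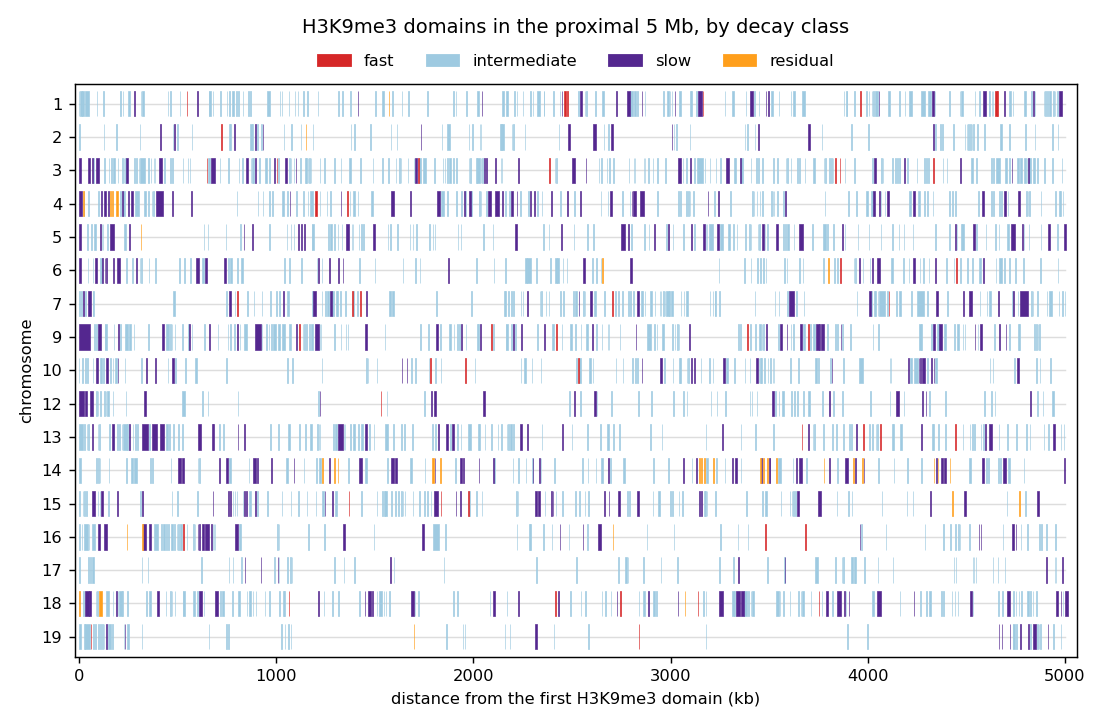
Each of the 1975 proximal domains by its distance in kb from the first domain of its chromosome (17 rows), drawn at its width with a thin outline so that short domains stay visible, and coloured by decay class. Residual domains (orange) gather on chromosome 14, slow domains (purple) are wide and frequent near distance 0 on several chromosomes, and chromosomes 17 and 19 are sparse.

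The stretch nearest the chromosome end stood out from the remainder of the 5 Mb. The first 250 kb of the 17 chromosomes held 179 domains, or 42.1 per Mb, which covered 26.5% of the sequence. Each chromosome has a domain at distance 0 by the rule, and without these 17 domains the density was 38.1 per Mb. The coverage and the class counts of this bin still include them, and 6 of the 17 are slow and 0 fast. The next 250 kb held 96 domains (22.6 per Mb) and covered 14.6%, and the following 2 bins of 250 kb covered 10.5% and 11.4%. Only 1 of the 179 domains in the first 250 kb was fast and 0 of the 96 in the next (at 3 counts, up to 3.125%), while 45 (25.1%) and 22 (22.9%) were slow. Residual domains numbered 7 and 2 in these bins and 0 in the next 2.

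Over the whole first Mb, 114 of 458 domains were slow (24.9%) and 6 were fast (1.31%). In the next 4 Mb the slow shares were 17.3%, 22.1%, 18.3% and 20.9%, and the fast shares 3.85%, 2.87%, 3.36% and 1.68%. Slow shares of the same size also occurred beyond the boundary, with 23.3% in the sixth Mb and 24.0% in the seventh, then 16.4% in the eighth. The share therefore followed no steady course with distance. Set against the rest of each chromosome, the slow share of the first Mb averaged 24.7%, against 18.1%, a difference of 6.63 ± 9.37 points (SD, n = 17), higher on 12 chromosomes and lower on 5. The fast share of the first Mb averaged 1.44%, against 2.98%, a difference of -1.54 ± 2.04 points, lower on 13 chromosomes and higher on 4. The first Mb was richest in slow domains on chromosome 6 (39.3% of 28 domains) and poorest on chromosome 1 (6.67% of 30). The boundary at 5 Mb marked no step: the last 250 kb inside it held 116 domains, of which 23 were slow, and the first 250 kb outside it held 112, of which 27 were slow.

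**Figure D3:**
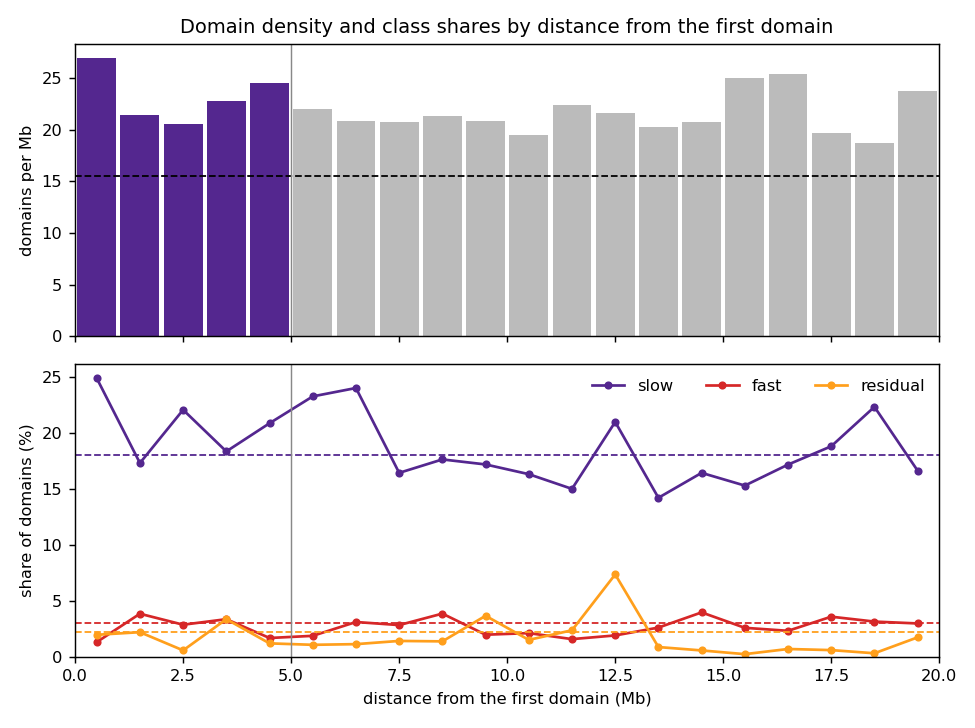
Domains per Mb (top) and slow, fast and residual shares in % (bottom) for each Mb of distance from the first domain, up to 20 Mb and pooled over 17 autosomes, with the proximal 5 Mb left of the grey line and dashed lines for the mean of the rest. The first Mb has the highest density (26.9 per Mb) and the highest slow share (24.9%) of the 20 bins, with the seventh Mb close behind in slow share (24.0%). All 20 bins lie above the mean density of the rest (15.6 per Mb).

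Proximal domains were wider, and the slow ones most of all. The median width was 3.3 kb (quartiles 2.1 and 6.3) in the proximal 5 Mb and 3.0 kb (1.8 and 4.5) in the rest. Per chromosome the median was larger in the proximal 5 Mb on 14 chromosomes and equal on the other 3, with a log2 ratio of 0.22 ± 0.15 (SD, n = 17), which was larger than its spread between chromosomes. It was 0.14 with a reach of 10 Mb and 0.14 with all domains pooled. By distance, the pooled median was 3.9 kb in the first Mb and 3.3 kb from 1 to 3 Mb. From 3 to 5 Mb it was 3.0 kb, equal to the median of the rest. Beyond the boundary it was 3.3 kb from 5 to 6 Mb and in some bins further out, and 3.0 kb in others. Slow domains had a median of 6.6 kb (3.0 and 11.1) in the proximal 5 Mb and 4.8 kb (3.0 and 8.7) in the rest, with a log2 ratio per chromosome of 0.30 ± 0.56, above 0 on 13 of 17. Intermediate domains had medians of 3.0 and 2.7 kb, with a log2 ratio of 0.13 ± 0.14. Fast domains had medians of 2.85 and 2.7 kb, and residual ones 3.0 and 2.4 kb. Domains over 12 kb made up 7.09% (140) of the proximal domains, against 3.27% (1060) of the rest, and among slow domains 19.4% (80) against 10.2% (595).

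Slow domains were the widest class when pooled, though on chromosome 17 the 8 proximal ones had a median of 2.7 kb, the same as all its proximal domains, against 6.3 kb for slow domains in its rest. The slow share was also read within width classes. Among domains over 12 kb, 57.1% of the proximal ones were slow, against 56.1% of the rest. Between 6 and 12 kb the shares were 37.7% (139 of 369) and 45.7%, and between 3 and 6 kb 16.6% and 18.4%. Between 1.5 and 3 kb they were 11.9% and 10.3%, and up to 1.5 kb 9.33% and 7.23%. At matched width the proximal share was thus lower in 2 bins and higher in 3. Domains over 6 kb, the widths at which slow domains are most frequent, made up 18.7% (6 to 12 kb) and 7.09% (over 12 kb) of the proximal domains, against 12.3% and 3.27% of the rest.

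**Figure D4:**
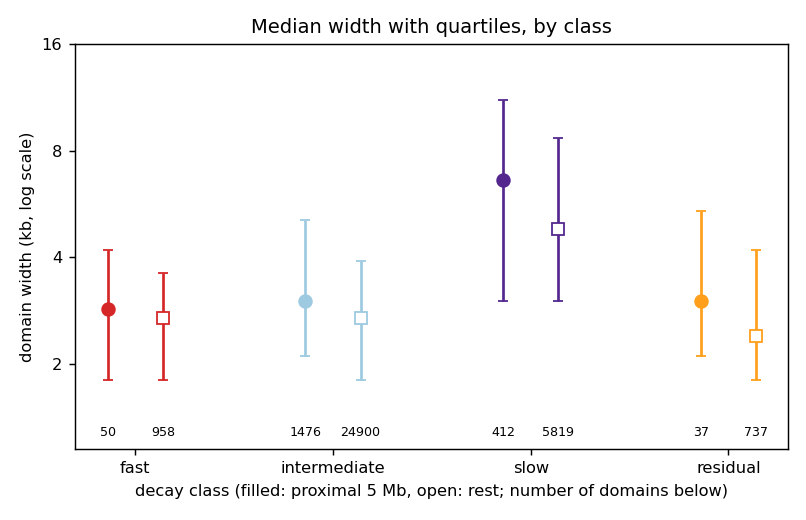
Median domain width in kb (log scale) with quartiles for each decay class, with the proximal 5 Mb filled and left, the rest open and right, and the number of domains below each. Slow domains are the widest class in both, with a median of 6.6 kb in the proximal 5 Mb and 4.8 kb in the rest.

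The proximal sequence held more words of low copy number. Per domain, the share of sampled 31-base words with 2 to 20 copies in the genome was on average 6.24 ± 7.45 points higher in the proximal 5 Mb than in the rest of the same chromosome (SD, n = 17), higher on 16 chromosomes and lower only on chromosome 2, and 4.71 points without chromosome 14. In the first 250 kb these words averaged 33.5% of a domain, and words found once 35.5%. Words with 2 to 20 copies averaged 25.8% in the first Mb and 16.2 to 18.2% in the bins from 1 to 5 Mb. Beyond the boundary they averaged 19.8% from 5 to 6 Mb, 13.7% from 13 to 14 Mb and 24.3% from 19 to 20 Mb. Shares of this size were therefore not particular to the proximal 5 Mb. The median share of words found once averaged 43.7% in the proximal 5 Mb and 49.0% in the rest, a difference of -5.28 ± 12.1 points that was -2.77 points without chromosome 14 and -2.46 points with a reach of 2.5 Mb. Soft-masked repeats made up 71.4% and 70.0% (1.47 ± 8.10 points). That difference turned to -1.62 points with a reach of 2.5 Mb and was 3.21 points with a reach of 10 Mb, 2.94 points pooled, and 0.899, 2.297 and 2.90 points without chromosome 13, 16 or 17. GC content was 42.6% and 43.0% (-0.430 ± 1.02 points, and -0.225 points with a reach of 2.5 Mb). The ratio of observed to expected CpG was 0.219 and 0.231 (-0.0122 ± 0.0180), lower on 12 chromosomes. The sources used here do not say how reads from repeated words were shared among copies, and the part of such reads in these classes was not tested.

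Chromosome 14 stood apart in sequence as well as in class. Of its 118 proximal domains, 60 were intermediate, 39 slow, 19 residual and 0 fast. Residual domains made up 16.1% (interval 10.6 to 23.8%) of its proximal domains, against 0.993% (18 of 1813) in the rest of the chromosome. All 19 lay between positions 4239301 and 7427400. The words found once made up a median of 6.67% of these 19 domains, with none above 23.3%, and 2.38% of the 99 other proximal domains of the chromosome. The 18 proximal residual domains of the other 16 chromosomes had a median of 66.7%, with 8 above 85%. In the rest of chromosome 14 the median of the 18 residual domains was 100%, with 16 above 85%, and over all 737 residual domains of the rest it was 95.2%. Of those 737, 474 were above 85%, while none of the 19 was. As few unique words were not particular to chromosome 14, since 118 of the 737 lay at or below 23.3%, on 14 chromosomes, with 34 on chromosome 1, 23 on chromosome 7, 15 on chromosome 13 and 13 on chromosome 4. Over all 118 proximal domains of chromosome 14 the median was 2.87%, against 48.3% in the rest of the chromosome.

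**Figure D5:**
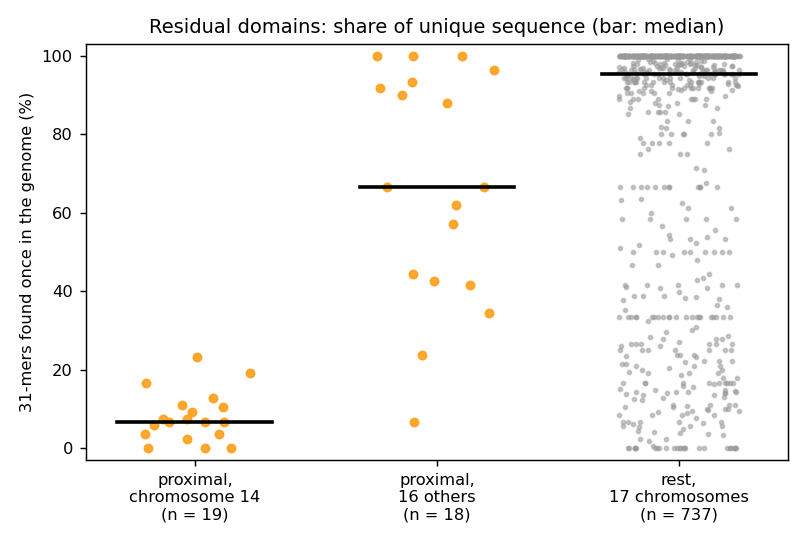
Share of 31-base words found once in the genome (%) for each residual domain: 19 proximal domains of chromosome 14, 18 proximal domains of the other 16 chromosomes, and 737 domains of the rest, with bars for medians. The medians are 6.67%, 66.7% and 95.2%, and none of the 19 exceeds 23.3%, a range that also holds 118 of the 737.

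Most proximal domains of chromosome 14 shared much of their sequence with another proximal domain. The sequence between domains was not compared. Words repeated across the genome were kept unless they lay in more than 50 domains, so a pair can rest on a shared repeat. Taking as copies any proximal domains that shared at least 50% of the words of the smaller one, 86 of its 118 domains (72.9%) had a copy, against 1.27% (chromosomes 2 and 9) to 22.6% (chromosome 16) on the others. There were 414 such pairs in all, 303 of them within chromosome 14. In that chromosome 202 pairs (66.7%) had the same class: 134 were intermediate with intermediate, 56 slow with slow and 12 residual with residual. Of the mixed pairs, 61 were intermediate with slow, 28 slow with residual and 12 intermediate with residual. Outside chromosome 14, 93 of 111 pairs (83.8%) had the same class. The 2 shares rest on unlike mixes of classes. Intermediate domains were 45 of the 86 domains with a copy on chromosome 14 and 66 of the 110 on the others. Among all proximal domains, with or without a copy, they were 50.8% and 76.3%. The share that each mix alone would give was not computed, so the shares do not rank the agreement of copies. Copies so defined on chromosome 14 thus did not always carry the same class. The stretches below show this at the level of bases, as plus-strand GRCm38 sequence with capitals at the bases that differ within a pair. The first pair is the closest of residual with residual domains (84.8% of words shared) and the second the closest of slow with residual (91.4%), and each shows the central 120 bases of the smaller domain with its closest match in the larger.
Residual, chr14:6179338-6179457: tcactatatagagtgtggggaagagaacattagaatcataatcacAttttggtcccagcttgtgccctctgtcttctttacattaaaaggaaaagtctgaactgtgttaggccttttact
Residual, chr14:6544591-6544710: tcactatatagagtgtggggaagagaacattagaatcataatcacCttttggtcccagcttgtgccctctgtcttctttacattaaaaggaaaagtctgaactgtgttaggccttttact
Residual, chr14:6167166-6167285: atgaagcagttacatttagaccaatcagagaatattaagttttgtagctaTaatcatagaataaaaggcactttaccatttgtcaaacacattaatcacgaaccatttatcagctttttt
Slow, chr14:5309641-5309760: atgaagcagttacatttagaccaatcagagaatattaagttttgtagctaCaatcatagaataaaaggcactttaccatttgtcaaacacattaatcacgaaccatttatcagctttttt
In both pairs 119 of the 120 bases were the same. The slow domain of the second pair, chr14:5309101-5310300, is 1.2 kb wide, and the residual one, chr14:6161101-6168600, is 7.5 kb wide, so the shared words make up only 14.3% of the larger.

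The domain nearest the end of each chromosome was slow on 6 chromosomes (3, 4, 5, 6, 9 and 12), residual on 1 (chromosome 18), fast on 0 and intermediate on the other 10. These first domains began 0 to 38400 bp beyond the first assembled base, apart from chromosome 15, where the offset was -200 bp. Their widths ran from 1.2 kb on chromosome 1 to 55.8 kb on chromosome 9. The last is chr9:3038401-3094200, which is slow, the longest of all proximal domains, and overlaps the microRNA gene Mir101c. The first domain of chromosome 12, chr12:3000001-3022800, is slow, 22.8 kb wide and outside any annotated gene, and words found once make up 16.7% of it. The first domains of chromosomes 16 and 19, both intermediate, had 0% of such words and 90.0% and 90.2% of words with 2 to 20 copies. That of chromosome 17 was the most unique among the intermediate ones, with 81.6%.

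Short tandem arrays were looked for directly in windows of 1 kb. A window was kept when at least 50% of its 31-base words recur within 1 kb downstream of themselves. There were 136 such windows in the proximal sequence of the 17 chromosomes, and 36 of them touched a domain, 11 on chromosome 17 and 10 on chromosome 3. Domains covered on average 11.6% of the proximal 5 Mb. The share of all 1 kb windows that touch a domain was not computed, so the 36 cannot be called many or few. On chromosome 3, 9 of these windows followed each other from position 6298001 to 6307000 with words recurring most often at 208 bp. Between the first assembled base and the first domain lay 12 windows, 6 on chromosome 9, 5 on chromosome 10 and 1 on chromosome 4, and by their place 0 of them touched a domain. On chromosome 9 these recurred most often at 234, 702, 877 or 935 bp.

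Proximal domains met genes less often than the rest when pooled, but the direction depended on the reach. A gene of any kind was overlapped by 31.6% (624) of the proximal domains and 35.6% of the rest, a body of a protein-coding gene by 18.2% and 24.2%, and a coding-gene exon by 4.56% (90) and 6.72%. Per chromosome the gene-body share averaged 34.1% and 35.9%, a difference of -1.76 ± 9.30 points (SD, n = 17), lower on 11, which is within the spread. It was 1.38 points with a reach of 2.5 Mb, the opposite direction, and -0.573 points with a reach of 10 Mb. Without chromosome 4, 9 or 3 it was -0.632, -0.963 or -0.832 points. A promoter (within 1 kb of the start of a protein-coding transcript) was met by 39 domains (1.97%), against 2.87% of the rest, with a difference per chromosome of -0.749 ± 2.305 points, lower on 12. That difference was -0.173 points with a reach of 2.5 Mb, and -1.74 points when a promoter reached 5 kb. Residual domains differed most in this respect. A gene body was met by 12 of the 37 proximal ones (32.4%) and by 69.2% of those in the rest, an exon by 4 (10.8%) and 30.9%, and a promoter by 2 (5.41%) and 19.0%. The 6 of 18 proximal residual domains off chromosome 14 that met a gene body compare with 6 of 19 on it.

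Proximal fast domains met 11 protein-coding genes. Those with the most bases in proximal fast domains were Rbfox1, a splicing regulator (7800 bp in 2 domains), Esr1, the estrogen receptor alpha (6900 bp), Zfhx4, a zinc finger homeobox factor (4800 bp), Zeb1, a repressor known from the epithelial to mesenchymal transition (4200 bp), and, tied at 3300 bp, Syne1, a nuclear envelope protein, and Plcxd3. The Esr1 domain, chr10:4910401-4917300, is intronic, the second longest fast domain, and only 14.5% of its words are found once. The longest, chr1:7667701-7674900 (7.2 kb), is outside genes and 88.9% unique. No fast domain met a coding promoter (0 of 50), against 39 of 958 in the rest (4.07%). A count of 0 of 50 allows, at 3 counts, a share of up to 6.0%.

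Intermediate domains covered the most bases of Gucy1a2, a subunit of soluble guanylate cyclase (46500 bp in 10 domains), Zfp804b, a zinc finger gene (38100 bp in 11), Gm45844 (30889 bp, 47.3% of the gene), Xkr4, a member of the XK family (30600 bp in 8), and Rp1, a microtubule protein of photoreceptors (29700 bp in 11). The longest intermediate domain, chr7:7249501-7284000 (34.5 kb), spans the promoter of Gm45844 and overlaps Clcn4, a chloride and proton exchanger. Several promoters of well-known genes met intermediate domains. These include that of Dnmt3a, a de novo DNA methyltransferase, met by chr12:3804601-3805800, which overlaps no base of the gene itself. Others were those of Dlx5, a homeobox regulator of skeletal and forebrain development (chr6:6877201-6884100), and Tac1, which encodes the precursor of substance P (chr6:7554001-7557300). All 3 domains are largely unique sequence, with 100%, 100% and 96.97% of words found once. A promoter of Usp29, a gene of the imprinted Peg3 region, met chr7:6946501-6948000, of which 6.67% is unique. That gene runs from 6730578 to 6967219 on the plus strand. The domain therefore met an internal transcript start, far from the start of the gene. These 4 promoters, and those named below for slow domains, were chosen after their values were seen.

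Slow domains covered the most bases of Fam110b (40200 bp in 4 domains), Vmn2r35, a vomeronasal pheromone receptor (29150 bp, 86.5% of the gene), Gm10251 (26400 bp, 57.7%), Camk1d, a calcium and calmodulin dependent kinase (22500 bp), and Gm3005 (20700 bp). The Vmn2r35 domain, chr7:7770901-7815300, is the second longest slow domain at 44.4 kb and only 2.03% unique. Of the 39 domains on promoters, 10 were slow. They include Zfhx4 (chr3:5242501-5244300, 100% unique), whose gene body also holds a fast domain at chr3:5398801-5403600, H60c, a ligand of an activating receptor of natural killer cells (chr10:3265801-3277800), and Hmox2, the constitutive heme oxygenase (chr16:4739701-4753500). On the plus strand, Zfhx4 starts at chr3:5218526 and Hmox2 at chr16:4726361. Their slow domains thus met internal transcript starts, inside the gene bodies. The slow and the fast domain of Zfhx4 lay 154.5 kb apart.

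Residual domains covered the most bases of Gdnf, a neurotrophic factor for dopaminergic and enteric neurons, with 5400 bp (20.2% of the gene) in chr15:7816201-7821600. Next came Gm8374 on chromosome 14 in full (3038 bp), 1800 bp of Gm3269, 1500 bp of Frmd4a, a FERM domain protein, and 1500 bp of Gm3149. The 2 promoters in residual domains were those of Gm8374 (chr14:7361701-7365600, 12.8% unique) and Gm960 (chr19:4697101-4698300, 91.7% unique). Another residual domain, chr6:6850501-6853500, lay in Dlx6os1, a noncoding RNA gene antisense to Dlx6, was 100% unique, and is named after its values were seen. It was 23.7 kb from the intermediate domain on the Dlx5 promoter. The longest residual domains were chr18:3108901-3121800 (12.9 kb), chr4:3251101-3261000 (9.9 kb), which overlaps the gene models AI838599 and Gm11783, and chr14:6475201-6483300 (8.1 kb).

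Gene families were taken by the start of the symbol. They had few members in the proximal 5 Mb, so their shares rest on small counts. Of all 773 protein-coding genes in it, 169 overlapped a domain (21.9%), against 23.2% of the 17355 in the rest. Zinc finger genes did so for 4 of 23, against 34.4% in the rest, and vomeronasal receptors for 3 of 23 (Vmn2r35, Vmn1r65 and Vmn1r56), against 27.1%. Of the 10 olfactory receptors none did, against 6.40% of 1031. Metalloproteinases and caspases gave 3 of 12 (Mmp1b, Mmp12 and Casp12), against 23.5%, and NLR and PYD genes, which encode inflammasome and germline proteins, 2 of 4 (Nlrp4c and Nlrp2), against 44.4%. Leukocyte receptors of the Lilr, Pira and Pirb families gave 0 of 4, and 0 of 2 in the rest. Lair1, a leukocyte receptor outside that list, had its promoter in an intermediate domain. Developmental regulators of the Sox, Hox, Pax, Gata, Tbx, Fox, Lhx, Nkx and Pou families gave 0 of 2, against 31.1%, a list that does not hold Dlx5, and protocadherins and cadherins had no member in the proximal 5 Mb. Predicted gene models gave 27 of 137 (19.7%), against 21.9%. Of these 27, 14 met an intermediate, 13 a slow, 4 a residual and 0 a fast domain. Over all 169 genes, 132 met an intermediate, 63 a slow, 11 a fast and 7 a residual domain.

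Along the chromosome, neighbouring proximal domains shared a class about as often as in the rest, for 1254 of 1958 neighbours (64.0%), against 64.2%, although the median gap between them was 19.5 kb, against 31.5 kb. Of these 1254, 1139 were intermediate with intermediate, where intermediate domains are 74.7% of the proximal domains and 76.8% of the rest. A slow domain was followed by another in 25.6% (104 of 406) of cases, against 20.5%, where slow domains are 20.9% of the proximal domains and 17.95% of the rest. Fast domains were followed by fast ones in 4 of 50 cases (8.0%), against 3.34%, where fast domains are 2.53% of the proximal domains and 2.96% of the rest. Residual followed residual in 7 of 37 cases (18.9%), against 20.9%, where residual domains are 1.87% and 2.27%. Of these 37, 19 lay on chromosome 14, where 16.1% of the proximal domains are residual. The other end of the chromosomes served as a further comparison. The density of 23.2 ± 7.51 domains per Mb in the proximal 5 Mb stood against 16.2 ± 3.21 in the distal 5 Mb and 15.5 ± 1.14 in between (SD, n = 17), and was above the distal one on 13 chromosomes. The median width averaged 3.34 kb in the proximal 5 Mb, 2.85 kb in the distal and 2.88 kb between. The slow share did not set the 2 ends apart: it averaged 20.9% in the proximal and 20.2% in the distal 5 Mb, a difference of 0.672 ± 8.43 points, higher on 10 chromosomes and lower on 7. The residual share averaged 1.93% in the proximal and 4.31% in the distal 5 Mb (-2.38 ± 6.18 points, lower on 12).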

How the data were processed

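The authors' deposited table of H3K9me3 domains has no header and 10 columns; the first 3 give positions, and the deposited class in column 4, made by the authors, is the readout. Bowtie2 2.3.4.1, deepTools, bedtools and SAMtools 1.1 are named per the submitters' processing notes, beside the builds GRCm38, mm10, mm9 and dm6. How domains were called, the spike-in applied, repeats counted and classes limited was not given in the sources used here. Drosophila chromatin (1.5 µg) was spiked into 20 µg of sample chromatin, per the labels' protocols; auxin was at 100 µg/ml and dTAG13 at 0.5 µM.

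Samples were grouped by antibody or input and by time. Domains lay on a 300 bp grid and were compared with GRCm38.p6 sequence and GENCODE vM21 genes, with an overlap of 1 bp. Copy number came from every 31-base word starting each 100 bp of a domain, counted on both strands over 21 chromosomes and 44 unlocalized or unplaced sequences. Copies were found from all words, leaving out those in more than 50 domains. Scripts ran in Python 3.11.15 with numba 0.67.0, scipy 1.17.1, pandas 2.3.3 and numpy 2.4.6. Counting and overlap code was tested on simulated data. The members, gene lists and named features were chosen with earlier results of these data known. Named were the first domain of each chromosome, the 3 longest domains per class, the 5 coding genes with the most bases per class, genes with a promoter in a fast or residual domain, and up to 3 members per gene list. The comparisons of copies, tandem windows and width bins were added after values were seen. Alternatives were another reach, baseline, weighting, width filter, joining of neighbours of the same class, base weighting and each chromosome left out.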

Additional observations from a re-analysis of the deposited data

How the results depend on the processing

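All settings give descriptions, since the table holds no value per sample; no paired analysis was possible because there are no sample columns. Over 79 settings of the 12 main differences, 77 kept the direction and moved by less than the spread between chromosomes. The exceptions came with a reach of 2.5 Mb, where the gene-body share was 1.38 points higher in the proximal end and the soft-masked share differed by -1.62 points. The cause was not tested. For most of the 12 differences the spread between chromosomes was larger than the difference itself. A move beyond it could therefore hardly occur, and staying within it says little. With each chromosome left out in turn, the direction of all 12 differences stayed: slow share 2.05 to 3.45 points, intermediate -2.65 to -0.333, fast -0.734 to -0.439, residual -1.27 to -0.135, density 0.46 to 0.56 (log2), width 0.20 to 0.23 (log2), gene body -2.64 to -0.632, promoter -1.04 to -0.567, GC -0.582 to -0.352, CpG ratio -0.0139 to -0.0102, soft-masked 0.899 to 2.90 and unique words -6.05 to -2.77. Chosen after seeing the data, a limit of 20% or 80% of shared words in place of 50% gave 75.98% or 80.9% of pairs of copies with the same class, against 71.3%, and leaving chromosome 14 out of the pool gave 0.969% residual domains, against 1.87%. Depth is unknown, and repeated sequence limits what a class says of a single copy.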
